A study of Mus musculus with 32 samples.

Results

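The proteasome subunit genes are here all genes of the deposited count table whose symbol begins with Psma, Psmb, Psmc, Psmd, Psme, Psmf or Psmg, leaving out pseudogene and antisense symbols. The rule found 50 of 23958 genes. The rule reads symbols only, though these genes were taken up with earlier results of these data known. Of the 50 genes, 46 passed the filter on low counts and were tested, and 4 did not. The rule also takes Psmc3ip, which shares the symbol stem but is known as a factor of meiotic recombination and is not a subunit of the particle.

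The proteasome is the protease that degrades ubiquitin-tagged proteins in the cytoplasm and nucleus. Its core is a barrel of stacked rings. The outer rings are built from alpha subunits, which gate the entry, and the inner rings from beta subunits, of which Psmb5, Psmb6 and Psmb7 carry the chymotrypsin-like, caspase-like and trypsin-like activities. A regulatory particle made of ATPases (Psmc) and non-ATPases (Psmd) recognises, deubiquitinates, unfolds and feeds in the substrates. Interferon can replace the catalytic subunits by Psmb8, Psmb9 and Psmb10, which gives the immunoproteasome known for making antigen peptides. In neurons the proteasome is known for the turnover of synaptic proteins.

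Messenger RNA was measured in the frontal cortex of 32 mice that had been given the gut microbiota of a primate: human in 12 mice, macaque in 12 mice and squirrel monkey in 8 mice. The area is the infralimbic and prelimbic cortex. The treatment in every group was an inoculation with a primate microbiota, and the labels used here name no uninoculated group, mouse strain, genotype, age, cage or individual donor. Each of the 6 batches named in the labels held mice of 1 donor species: A (4 mice) and B (8 mice) human, C and D (4 mice each) squirrel monkey, and E (5 mice) and F (7 mice) macaque. Donor species and batch therefore cannot be told apart. Libraries were 3′ tag libraries (TagSeq), which count reads from near the polyadenylated end of a transcript. Library totals ran from 1035036 to 2089308 counts per mouse, with a median of 1534710.5 and with 5 human mice above every mouse of the other groups. All 5 excitatory neuron markers of the cortex were present, with summed levels of 1775 to 2779 CPM (the count scaled by library total) per mouse. P-values measure the spread between mice. In bulk tissue, fewer cells of a type and less RNA per cell cannot be told apart.

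RefSeq promoter windows of GRCm38.p6, from 250 bases before to 50 bases after the start, were found for 42 of the 50 genes. The windows of 4 genes are shown because the results turn on them or because they hold a motif: Psmd13, the gene with the largest difference between groups, the catalytic subunit genes Psmb5 and Psmb6, and the activator gene Psme1. Capitals mark matches to the core of the antioxidant response element, TGACNNNGC, or, in Psme1, to the interferon-stimulated response element. In the Psmd13 window neither pattern was matched, so it has no capitals. The windows lie at chr7:140882144-140882443 on the plus strand (Psmd13), chr14:54617946-54618245 on the minus strand (Psmb5), chr11:70525107-70525406 on the plus strand (Psmb6) and chr14:55578244-55578543 on the plus strand (Psme1).
Psmd13: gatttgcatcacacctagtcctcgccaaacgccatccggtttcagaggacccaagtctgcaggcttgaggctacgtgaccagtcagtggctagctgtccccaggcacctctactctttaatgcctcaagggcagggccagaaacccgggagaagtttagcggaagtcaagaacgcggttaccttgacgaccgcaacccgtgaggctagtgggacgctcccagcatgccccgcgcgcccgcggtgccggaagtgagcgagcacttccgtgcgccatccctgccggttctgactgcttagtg
Psmb5: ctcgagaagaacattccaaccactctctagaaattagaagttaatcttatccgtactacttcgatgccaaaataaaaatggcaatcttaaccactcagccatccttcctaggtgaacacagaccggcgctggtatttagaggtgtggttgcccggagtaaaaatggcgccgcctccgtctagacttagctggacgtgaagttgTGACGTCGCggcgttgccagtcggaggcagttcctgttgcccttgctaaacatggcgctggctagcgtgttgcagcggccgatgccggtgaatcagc
Psmb6: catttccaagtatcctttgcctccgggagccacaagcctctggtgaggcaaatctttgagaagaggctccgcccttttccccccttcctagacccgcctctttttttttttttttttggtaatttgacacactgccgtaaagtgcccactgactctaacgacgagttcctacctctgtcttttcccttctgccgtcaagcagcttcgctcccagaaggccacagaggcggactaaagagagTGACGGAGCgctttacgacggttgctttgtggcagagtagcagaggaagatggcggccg
Psme1: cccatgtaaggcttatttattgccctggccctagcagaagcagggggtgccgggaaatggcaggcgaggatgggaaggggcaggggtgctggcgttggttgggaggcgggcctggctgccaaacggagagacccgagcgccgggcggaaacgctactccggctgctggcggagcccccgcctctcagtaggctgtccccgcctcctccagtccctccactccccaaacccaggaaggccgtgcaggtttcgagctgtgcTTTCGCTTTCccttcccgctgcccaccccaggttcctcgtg
Both strands were searched, and the gene's own strand is printed. In Psmb5 the match begins 47 bases and in Psmb6 9 bases before the start. In Psme1 the match lies on the opposite strand of the gene, 10 bases into the transcript, and so reads as its reverse complement. The antioxidant pattern was found in 6 of the 42 member genes with a window (14.3%) and in 3781 of all 27025 genes with a window. The interferon pattern was found in 5 of 42 (11.9%) and in 3.99% of all genes, namely in Psmd4, Psmd9, Psmb3, Psmg4 and Psme1. A CCAAT box was found for 35.7% of the 42 member genes (41.1% of all genes), and a GC box, GGGCGG, for 54.8% (38.2%). A match of letters is a description and was not tested as a binding site.

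Together the 50 genes gave about the same share of the counts in every donor group. The summed level was 5246 ± 327 CPM (SD, n = 12) in mice given human microbiota, 5271 ± 181 CPM (SD, n = 8) with squirrel monkey and 5245 ± 385 CPM (SD, n = 12) with macaque microbiota. Single mice ranged from 4550 to 5688, from 5000 to 5548 and from 4838 to 5818 CPM, so the groups overlapped throughout. Each donor mean lies between the means of its own batches, so batch means must spread at least as far as donor means. Batch A, with human microbiota, was the lowest at 4946 ± 291 CPM (SD, n = 4), and batch B, also human, the highest at 5395 ± 235 CPM (SD, n = 8).

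**Figure D1:**
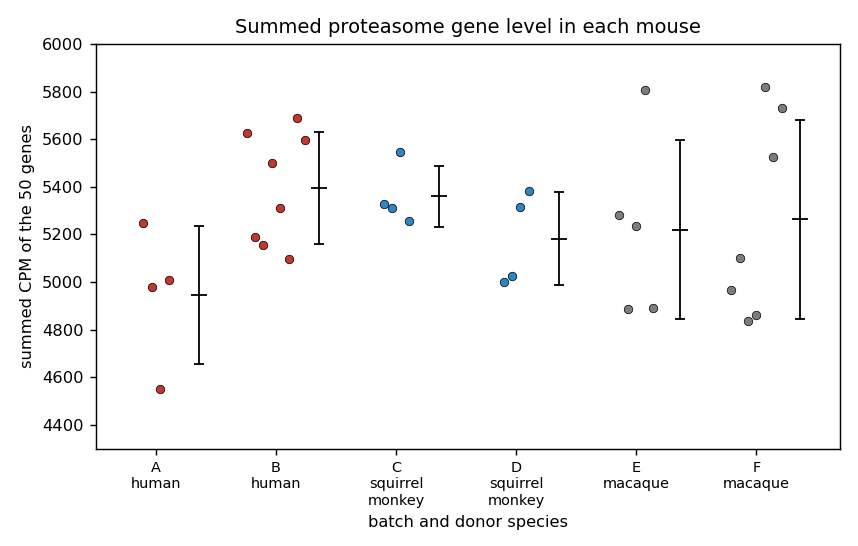
Each point is 1 mouse; the vertical axis, which does not start at 0, is the summed level of the 50 proteasome genes in CPM, and mice are grouped by batch and donor species, with the mean ± SD beside them. The 3 donor species overlap, and batch A lies lowest, with 1 mouse at 4550 CPM.

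Levels differed widely among the members. Tags are counted once per transcript end and are not divided by length, so levels of different genes are set side by side here as tag levels only. The highest were Psmd2, a scaffold of the regulatory particle (272 CPM, the mean over all mice), and the ATPase Psmc5 (271 CPM). The median member of a class lay at 149 CPM for the alpha subunits, 128 CPM for the constitutive beta subunits, 184 CPM for the ATPases and 130 CPM for the non-ATPases. Assembly chaperones were lower, with a median of 52.9 CPM for Psmd5, Psmd9 and Psmd10 of the regulatory particle and 19.1 CPM for Psmg1 to Psmg4 of the core. Psmd13, a non-ATPase of the lid, was the lowest of its class at 18.5 CPM, and the next of the 11 was Psmd3 at 56.6 CPM. The 4 genes that were not tested in the main fit had few counts in any mouse: 0 to 3 for the testis alpha subunit Psma8, 0 to 5 for Psmb9, 0 to 4 for Psme2b and 1 to 13 for Psmc3ip. With the filter left off, all 50 genes were tested. In human against macaque 2 of 50 then passed, Psmd13 and Psmb7, and 774 of 23685 genes. The 4 genes were not called there in any donor comparison. Whether a difference was missed at such counts was not tested.

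Mice given human rather than macaque microbiota differed in 2 of the 46 tested genes. Psmd13 was higher and Psmb7, the trypsin-like catalytic subunit, was lower; of all 12651 genes tested, 8.01% passed, 4.47% as higher and 3.54% as lower (edgeR quasi-likelihood test, Benjamini-Hochberg adjusted p under 0.05 over all genes). The share of members, 2 of 46, was no higher than that of all genes. Unadjusted p was under 0.05 in 13 members, and in 23.1% of all genes. The median log2 fold change of the members was 0.01, against -0.001 over all genes, and their median absolute log2 fold change was 0.10, against 0.12.

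No member passed in the other donor comparisons. With squirrel monkey rather than macaque microbiota 0 of 46 passed by edgeR, and 0.640% of all genes did, 0.387% as higher and 0.253% as lower. DESeq2 and limma voom gave 0 as well, and 5 members and 13.2% of all genes had unadjusted p under 0.05. With human rather than squirrel monkey microbiota 0 of 46 passed, where 0.134% of all genes did, 0.0158% as higher and 0.119% as lower. DESeq2 and limma voom again gave 0; unadjusted p was under 0.05 in 6 members and in 1267 of the 12651 genes. A test for any difference among the 3 donor groups passed in 1 member, Psmd13, and in 6.15% of all genes. These comparisons share mice, so their fold changes are not independent.

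**Figure D2:**
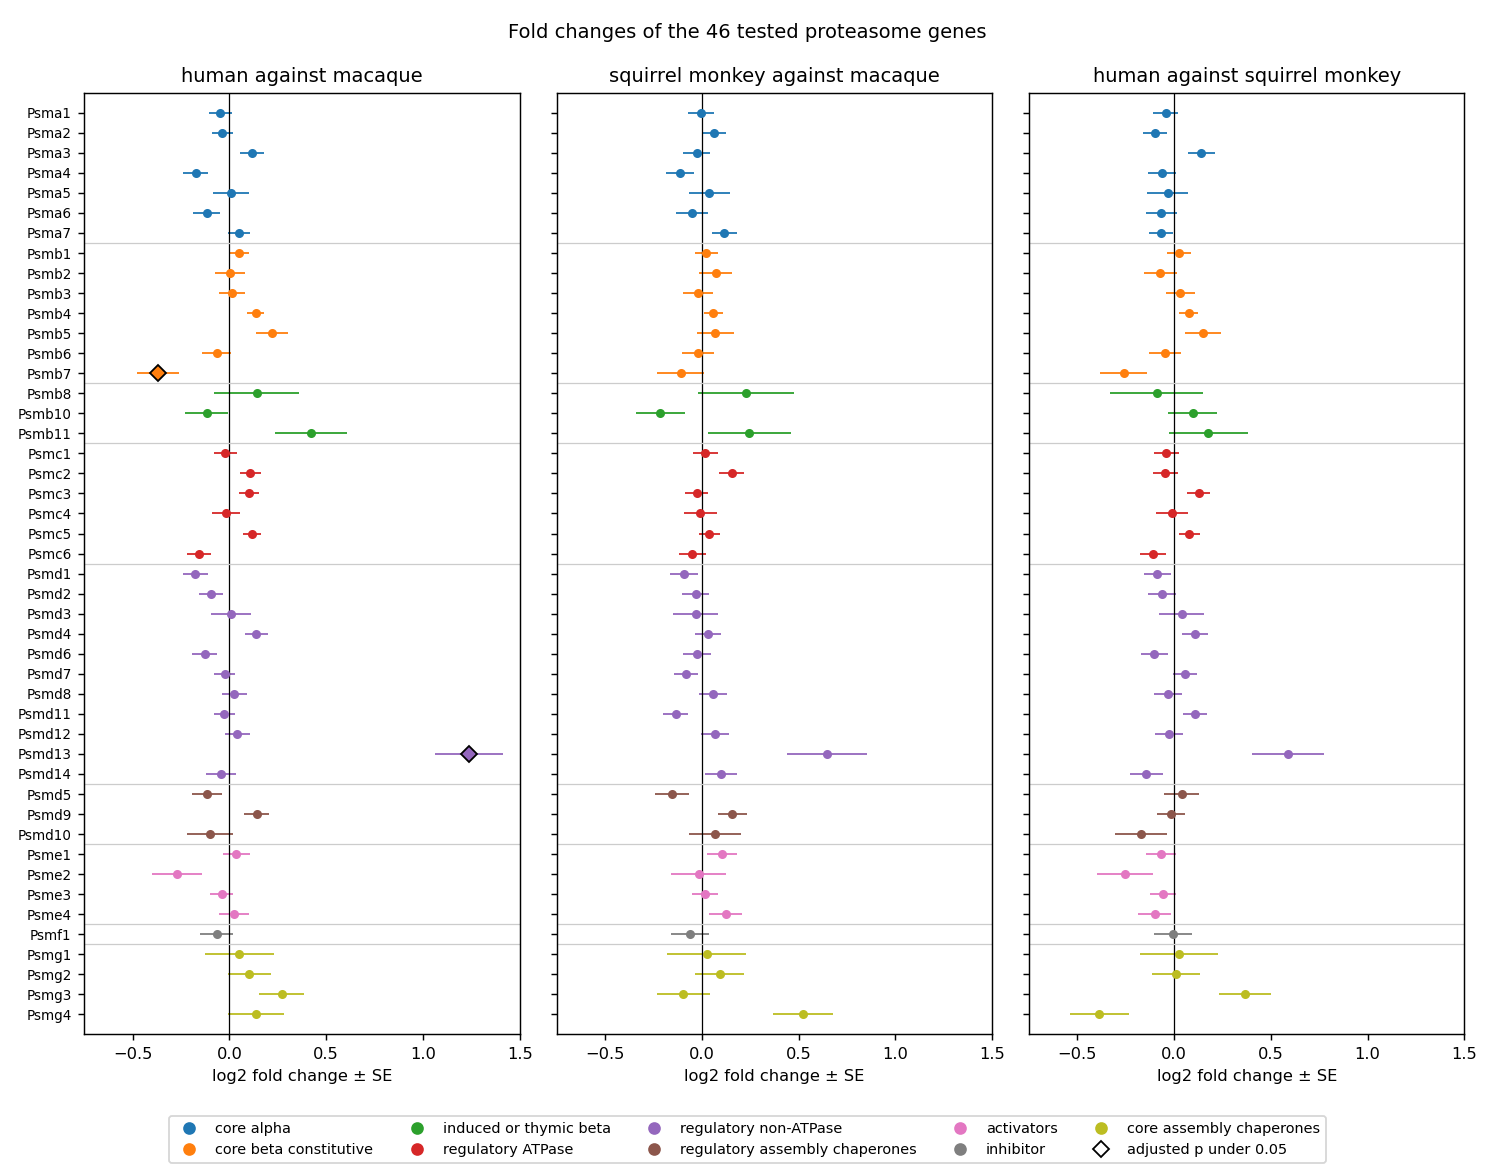
Points are log2 fold changes of the 46 tested genes with 1 SE in the 3 donor comparisons, ordered and coloured by role; diamonds mark an adjusted p under 0.05. Most points lie near 0. Psmd13 lies at 1.24, 0.65 and 0.59, Psmb7 at -0.37 in human against macaque, and a few low genes such as Psmg4 also lie apart. Diamonds are seen in human against macaque only, at Psmd13 and Psmb7, and whether the comparisons differ from one another was not tested.

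Psmd13 had the widest difference of the 46 genes between human and macaque mice. Its level was 10.02 to 39.9 CPM (median 26.1, n = 12) with human microbiota. With squirrel monkey microbiota it was 11.9 to 23.6 CPM (median 17.8, n = 8), and with macaque microbiota 5.44 to 15.1 CPM (median 11.1, n = 12). Of the 12 human mice, 10 lay above every macaque mouse, and the squirrel monkey mice lay between, 6 of 8 above every macaque mouse. The group means were 26.3 ± 8.97, 17.8 ± 4.02 and 11.1 ± 3.13 CPM (SD).

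For human against macaque the log2 fold change of Psmd13 was 1.24 ± 0.18 (SE; edgeR, adjusted p = 7.02e-06). The any-group test gave adjusted p = 3.36e-05. Squirrel monkey against macaque gave 0.65 ± 0.21 and did not pass (adjusted p = 0.129), nor did human against squirrel monkey at 0.59 ± 0.19 (adjusted p = 0.194). The batch means followed the donor groups: 28.8 ± 8.23 and 25.1 ± 9.59 CPM in batches A and B, 20.2 ± 3.59 and 15.3 ± 2.95 in C and D, 11.1 ± 4.10 and 11.1 ± 2.61 in E and F (SD). Psmd13 counts were small, from 7 to 86 per mouse. Its exons overlap those of Sirt3 on the opposite strand, though not at the 3′ end. Its last 300 bases had no match of 100 bases or more at 95% identity in annotated transcripts of genes elsewhere. Sirt3 had 9.02 CPM and a log2 fold change of 0.10 (edgeR adjusted p = 0.803).

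**Figure D3:**
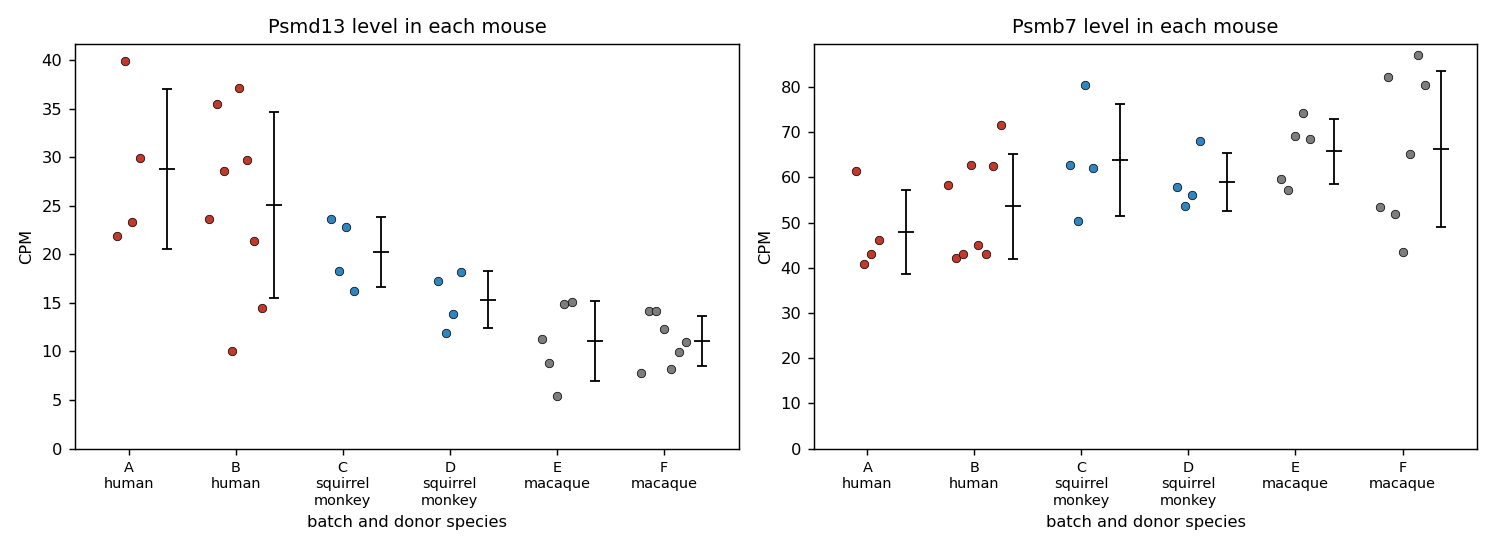
Each point is 1 mouse, by batch and donor species, with the mean ± SD of the batch beside it; the vertical axes are the levels of Psmd13 and Psmb7 in CPM and start at 0. Psmd13 steps down from the human to the macaque batches, whereas in Psmb7 the human mice reach down to 40.9 CPM and the groups overlap.

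Psmb7 moved the other way, and by less. Its level was 40.9 to 71.6 CPM (median 45.6, n = 12) with human microbiota, 50.4 to 80.4 CPM (median 60.0, n = 8) with squirrel monkey and 43.5 to 87.1 CPM (median 66.8, n = 12) with macaque microbiota. Of the 12 human mice, 11 lay at or below the macaque median, and 5 lay below every macaque mouse. The log2 fold change for human against macaque was -0.37 ± 0.11 (SE; edgeR, adjusted p = 0.0270). For squirrel monkey against macaque it was -0.11 ± 0.12 (adjusted p = 0.759), and for human against squirrel monkey -0.26 ± 0.12 (adjusted p = 0.467). The 3′ end of Psmb7 overlaps Nek6 on the opposite strand, and the use of strand in counting is not given in the sources used here, so its counts are uncertain. Nek6 itself had a log2 fold change of 0.04 (edgeR adjusted p = 0.885). The Psmb7 call was lost without batch A (-0.32, edgeR adjusted p = 0.141), batch E (-0.38, adjusted p = 0.120) or batch F (-0.36, adjusted p = 0.115), and without human replicate 2 or 7 or macaque replicate 7, 11 or 12, where the log2 fold change over all 32 single left-out mice ran from -0.42 to -0.33 and the adjusted p reached 0.0580.

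Library totals differed between the groups, and both genes differed between the human mice of high and lower total. In the 5 human mice of highest total, Psmd13 was 28.6 to 39.9 CPM and Psmb7 40.9 to 45.0 CPM, against 10.02 to 29.97 and 43.0 to 71.6 CPM in the other 7. Within batch F, Psmd13 rose with log2 library total (r = 0.907, exact permutation p = 0.000198, adjusted p = 0.00298 over 15 relations; rho = 1.0, exact permutation p = 0.000397, adjusted p = 0.00595; n = 7; r = 0.903 without the 2 farthest mice). Within batch B the relation was r = 0.454 (exact permutation p = 0.255, adjusted p = 0.547; rho = 0.571, exact permutation p = 0.151, adjusted p = 0.324; n = 8; r = 0.884 without the 2 farthest mice). For Psmb7 in batch B it was r = -0.727 (exact permutation p = 0.0452, adjusted p = 0.17; rho = -0.69, exact permutation p = 0.0694, adjusted p = 0.176; n = 8; r = -0.88 without the 2 farthest mice), and in batch F r = 0.163 (exact permutation p = 0.743, adjusted p = 0.947; rho = -0.179, exact permutation p = 0.713, adjusted p = 0.891; n = 7; r = -0.465 without them). Batches A, C, D and E held fewer than 6 mice, and no relation was computed for them. Over whole donor groups, none of the 6 relations of these genes passed. For Psmd13, r was 0.494 in human mice (permutation p = 0.101, adjusted p = 0.253; rho = 0.615, permutation p = 0.0374, adjusted p = 0.14). Leaving out the 2 mice of most extreme total gave r = 0.658. In squirrel monkey mice its r was -0.0476 (exact permutation p = 0.911, adjusted p = 0.963; rho = -0.0476, exact permutation p = 0.935, adjusted p = 0.991; r = -0.697 without them), and in macaque mice 0.69 (permutation p = 0.0133, adjusted p = 0.0666; rho = 0.713, permutation p = 0.0118, adjusted p = 0.0589; r = 0.748 without them). For Psmb7 the sign of r differed between groups: r was -0.529 in human mice (permutation p = 0.0797, adjusted p = 0.239; rho = -0.545, permutation p = 0.0703, adjusted p = 0.176; r = -0.791 without them). In squirrel monkey mice it was -0.211 (exact permutation p = 0.622, adjusted p = 0.933; rho = -0.286, exact permutation p = 0.501, adjusted p = 0.683; r = -0.836 without them), and in macaque mice 0.19 (permutation p = 0.552, adjusted p = 0.921; rho = 0.00699, permutation p = 0.991, adjusted p = 0.991; r = -0.225 without them).

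The human against macaque difference of Psmd13 was past the threshold without those 5 mice (log2 fold change 0.87, edgeR adjusted p = 0.00590), with library total as a covariate (0.999, adjusted p = 0.000394) and with every library thinned to 1035036 counts (1.29, adjusted p = 3.11e-05). That of Psmb7 was not: -0.19 (adjusted p = 0.416), -0.31 (adjusted p = 0.113) and -0.31 (adjusted p = 0.0679).

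**Figure D4:**
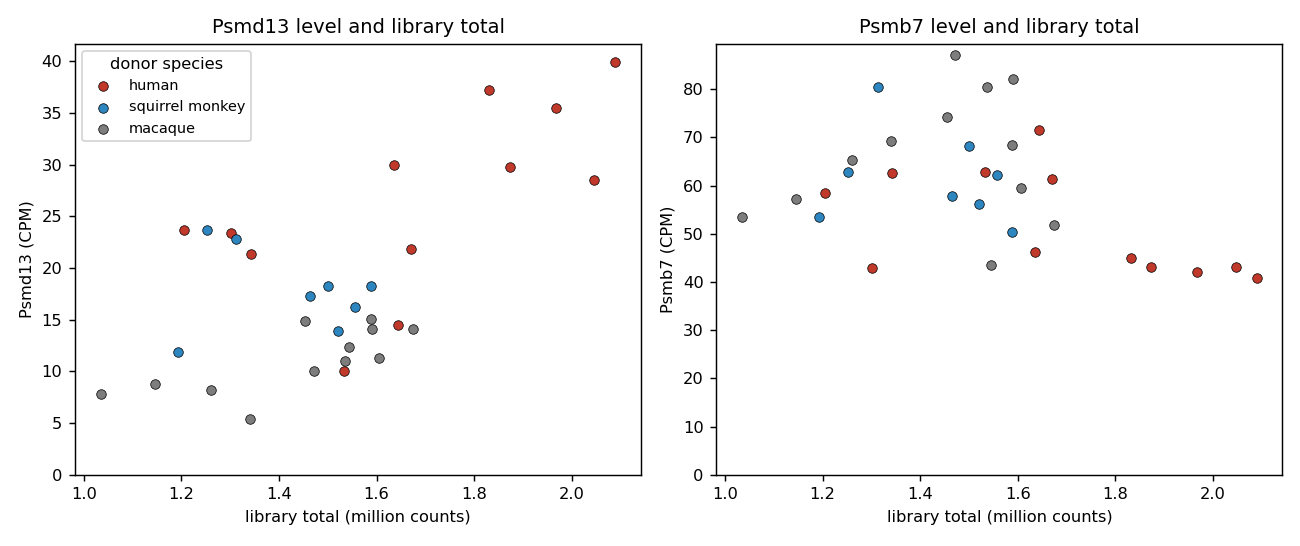
Each point is 1 mouse; the horizontal axes are library totals and the vertical axes the levels of Psmd13 and Psmb7 in CPM, coloured by donor species. The 5 human mice of highest total, 1830901 counts or more, have Psmd13 of 28.6 CPM or more and Psmb7 of 45.0 CPM or less.

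The alpha subunits that form the outer rings did not differ between groups by the test. None of the 7 tested passed in any donor comparison by edgeR; unadjusted p was under 0.05 in 1, 0 and 1 of them for human and squirrel monkey against macaque and for human against squirrel monkey. Psma4, the highest of the class, was 178 to 250 CPM (median 212) in human mice, 198 to 248 CPM (median 221) in squirrel monkey mice and 182 to 270 CPM (median 247) in macaque mice. Of the 12 human mice, 11 lay at or below the macaque median, with a log2 fold change of -0.17 ± 0.06 (SE; edgeR, adjusted p = 0.0856). Psma4 passed with the 6 batches as fixed levels (-0.22, adjusted p = 0.0201). The log2 fold changes of the class lay between -0.17 and 0.12.

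Among the 7 constitutive beta subunits only Psmb7 passed, in human against macaque. Psmb4, a structural beta subunit, was close to the threshold. It was 208 to 250 CPM (median 238) in human, 199 to 250 CPM (median 225) in squirrel monkey and 193 to 236 CPM (median 212) in macaque mice, and 7 of 12 human mice lay above every macaque mouse. Its log2 fold change was 0.14 ± 0.04 (SE; edgeR, adjusted p = 0.0510), and it passed with DESeq2 (adjusted p = 0.0268) and not with limma voom.
Psmb1, the highest of the class, was 207 to 259, 212 to 241 and 199 to 264 CPM in human, squirrel monkey and macaque mice (log2 fold change for human against macaque 0.05 ± 0.05, adjusted p = 0.639). Psmb5, the chymotrypsin-like subunit, was 74.6 to 124, 71.2 to 119 and 76.5 to 112 CPM (0.22 ± 0.08, adjusted p = 0.0974), with the caveat that part or all of its last 300 bases matches transcripts of 2 other genes. Psmb6, the caspase-like subunit, was 132 to 207, 150 to 177 and 131 to 201 CPM (-0.07 ± 0.07, adjusted p = 0.639). In each of these the 3 groups overlapped.

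The induced catalytic subunits Psmb8 and Psmb9 gave few tags in these cortices, and Psmb10 gave more. None of the 3 tested induced or thymic genes passed by edgeR in a donor comparison; unadjusted p was under 0.05 in 1, 0 and 0 of them. Psmb8, which takes the place of Psmb5, was 1.59 to 12.6 CPM (median 8.20) in human, 3.94 to 11.4 CPM (median 9.05) in squirrel monkey and 2.64 to 10.9 CPM (median 7.78) in macaque mice. The log2 fold change for human against macaque was 0.14 ± 0.22 (SE; edgeR, adjusted p = 0.754). Psmb9, which takes the place of Psmb6, was 0 to 3.38, 0 to 4.25 and 0.589 to 2.33 CPM and was not tested in the main fit.
Psmb10, which takes the place of Psmb7, was 45.6 to 88.6 CPM (median 66.6), 54.1 to 77.3 CPM (median 59.5) and 49.3 to 103 CPM (median 69.6) in human, squirrel monkey and macaque mice (log2 fold change for human against macaque -0.12 ± 0.11, adjusted p = 0.569). The ratio of Psmb8 to Psmb5 was 0.0762 ± 0.0339, 0.0911 ± 0.0382 and 0.0788 ± 0.0283 (SD) in the 3 groups. That of Psmb10 to Psmb7 was 1.33 ± 0.272 in human, 1.03 ± 0.159 in squirrel monkey and 1.10 ± 0.139 in macaque mice (SD), where the human mice have the lower Psmb7; this ratio was not tested. Psmb11, a subunit known from the thymus, is listed at 17.6 CPM. Part or all of its last 300 bases matches transcripts of 16 other genes, so these reads cannot be assigned to it with confidence.

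**Figure D5:**
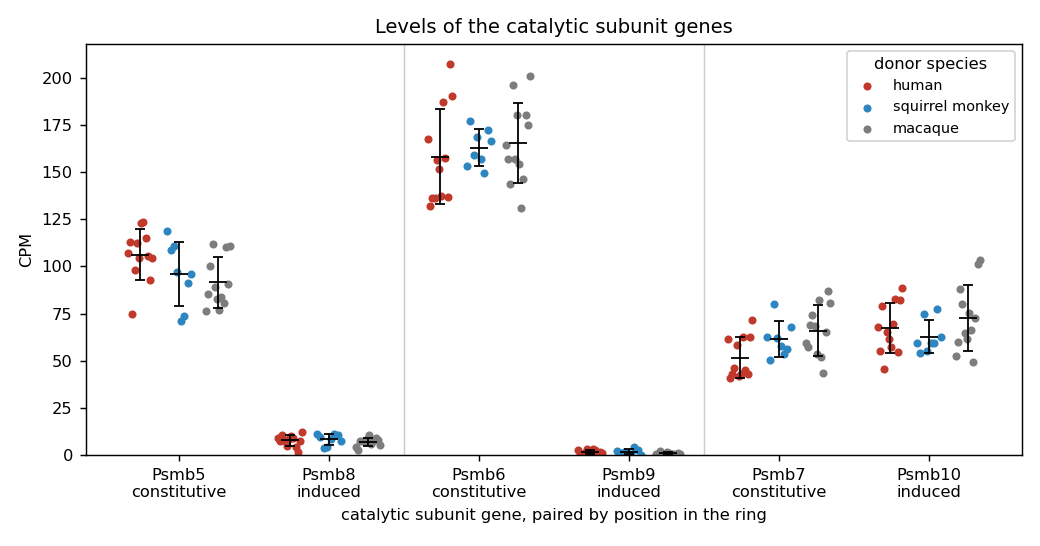
Each point is 1 mouse; the vertical axis is the level in CPM, the genes are paired by position in the core, and bars give the mean ± SD of each donor group. Psmb8 reaches 12.6 CPM and Psmb9 4.25 CPM at most, whereas Psmb10 lies at the level of Psmb7.

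The 6 ATPases of the regulatory particle gave no call in any donor comparison by edgeR; unadjusted p was under 0.05 in 2, 1 and 1 of them. Psmc2 had the smallest p of the class in squirrel monkey against macaque. It was 148 to 183 CPM (median 172) in squirrel monkey, 125 to 170 CPM (median 150) in macaque and 136 to 184 CPM (median 161) in human mice, and 5 of 8 squirrel monkey mice lay above every macaque mouse. Its log2 fold change was 0.15 ± 0.06 (SE; edgeR, adjusted p = 0.275). Psmc5, the highest, was 262 to 325, 240 to 279 and 219 to 292 CPM in human, squirrel monkey and macaque mice (0.12 ± 0.05 for human against macaque, adjusted p = 0.132).

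Of the 11 non-ATPases, only Psmd13 passed. The other 10 had log2 fold changes between -0.18 (Psmd1) and 0.14 (Psmd4, a ubiquitin receptor) for human against macaque. Psmd1 passed with the 6 batches as fixed levels (-0.22, edgeR adjusted p = 0.0161; any donor group, adjusted p = 0.0474). Psmd2 was 203 to 306, 235 to 298 and 219 to 325 CPM in human, squirrel monkey and macaque mice, with overlapping groups (-0.10 ± 0.06, edgeR adjusted p = 0.389). Psmd14, the deubiquitinating subunit, had a log2 fold change of -0.04 ± 0.08 (adjusted p = 0.780). Among the chaperones of the regulatory particle, 0 of 3 passed by edgeR (unadjusted p under 0.05 in 1, 1 and 0 of them). Psmd5 was 49.2 to 77.0, 48.1 to 68.6 and 51.3 to 75.0026 CPM in human, squirrel monkey and macaque mice (-0.11 ± 0.08, adjusted p = 0.400).

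The core assembly chaperones include Psmg4, which had the second largest difference of the 46 genes between squirrel monkey and macaque mice, but none of the 4 passed by edgeR; unadjusted p was under 0.05 in 1, 1 and 2 of them. Psmg4 was 18.9 to 37.5 CPM (median 25.0) in squirrel monkey, 9.41 to 23.6 CPM (median 18.6) in macaque and 12.8 to 30.05 CPM (median 19.6) in human mice. Of the 8 squirrel monkey mice, 5 lay above every macaque mouse and all lay above the macaque median. Its log2 fold change was 0.52 ± 0.16 for squirrel monkey against macaque (SE; edgeR, adjusted p = 0.0980) and -0.39 ± 0.15 for human against squirrel monkey (adjusted p = 0.342).
Psmg3 was 15.2 to 26.4 CPM (median 20.4) in human, 9.36 to 20.7 CPM (median 16.6) in squirrel monkey and 12.4 to 21.4 CPM (median 16.2) in macaque mice. For human against squirrel monkey its log2 fold change was 0.37 ± 0.13 (adjusted p = 0.287). For human against macaque it was 0.27 ± 0.12 (adjusted p = 0.149), and Psmg3 passed with thinned counts (0.44, adjusted p = 0.0473). Psmg2, the partner of Psmg1 in alpha ring assembly, was 19.5 to 30.5, 15.3 to 30.2 and 15.7 to 30.2 CPM (0.10 ± 0.11 for human against macaque, adjusted p = 0.637).

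The activators, which open the core in place of the regulatory particle, gave 0 calls among 4 tested genes by edgeR (1 with unadjusted p under 0.05 in human against macaque and 0 in the other comparisons). Psme3, the nuclear activator and highest of the class, was 86.0 to 138, 105 to 132 and 107 to 138 CPM in human, squirrel monkey and macaque mice (-0.04 ± 0.06 for human against macaque, adjusted p = 0.744). The interferon-inducible pair Psme1 and Psme2 had log2 fold changes of 0.04 ± 0.07 (adjusted p = 0.805) and -0.27 ± 0.13 (adjusted p = 0.191). Part or all of the last 300 bases of Psme2 matches Psme2b, and that of Psme1 matches 1 other gene. The 3′ end of Psme1 overlaps Emc9 on the opposite strand. The inhibitor Psmf1 was 35.5 to 53.2, 36.9 to 59.1 and 32.1 to 58.5 CPM (-0.07 ± 0.09, adjusted p = 0.705).

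Between batches of the same donor species no member passed by edgeR, DESeq2 or limma voom. In batch A against batch B, 0 of 46 passed where 0.0237% of all genes did, and 10 members (11.6% of all genes) had unadjusted p under 0.05. The members lay lower in batch A as a group: 38 of 46 log2 fold changes were negative, with a median of -0.15 against -0.001 over all genes. In the same comparison all 7 oligodendrocyte markers (median log2 fold change 0.67) and all 4 blood markers (median 0.58) had positive values, with 0 called by edgeR and 0 and 1 at unadjusted p under 0.05. All 5 astrocyte (median 0.12), all 3 endothelial (median 0.29) and 4 of 5 excitatory neuron markers were positive too. Negative values were seen in 5 of 7 microglia, 2 of 3 inhibitory neuron and all 3 tested striatal markers. The part of these markers in the lower proteasome values was not tested. Among the members the lowest p was that of Psme1 (-0.29 ± 0.09, edgeR adjusted p = 0.253). All 7 constitutive beta and all 4 tested activator genes had negative values. In batch C against batch D 0 of 46 passed (0% of all genes; 5 members and 6.98% of all genes with unadjusted p under 0.05), with a median of 0.06. In batch E against batch F 0 of 46 passed (0% of all genes; 2 members and 3.15% of all genes with unadjusted p under 0.05), with a median of -0.01.

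The members called between human and macaque mice changed with the batches used. Without batch B, the median log2 fold change of the members for human against macaque was -0.09, and Psma4, Psmd1 and Psme2 passed as lower (log2 fold changes -0.36, -0.35 and -0.49; edgeR adjusted p = 0.00984, 0.0124 and 0.0310). In that setting 5 of 46 members passed, and 1078 of all 12973 genes tested did. Without batch A the median was 0.05, and only Psmd13 passed, where 472 of all 12471 genes tested did. Over whole donor groups the relation of summed level to log2 library total did not pass. It was r = -0.225 in human mice (permutation p = 0.488, adjusted p = 0.914, rho = -0.413). In squirrel monkey mice r was 0.14 (exact permutation p = 0.758, adjusted p = 0.947, rho = -0.0476). In macaque mice r was 0.0148 (permutation p = 0.963, adjusted p = 0.963, rho = -0.287). Without the 2 farthest mice r was -0.752, -0.419 and -0.624. Within batch B the summed level fell with library total (r = -0.885, exact permutation p = 0.00503, adjusted p = 0.0378 over 15 relations; rho = -0.881, exact permutation p = 0.00724, adjusted p = 0.0543; n = 8; r = -0.868 without the 2 farthest mice). Within batch F it was r = -0.114 (exact permutation p = 0.829, adjusted p = 0.957; rho = -0.536, exact permutation p = 0.236, adjusted p = 0.393; n = 7; r = -0.677 without them).

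Most members varied little from mouse to mouse within a donor group. The biological coefficient of variation (the spread beyond counting error, as edgeR estimates it per gene) had a median of 0.0941 over the 46 genes, against 0.122 over all genes tested and 0.120 over genes within the members' range of level. It lay below the trend for genes of like level in 39 of 46 members (84.8%), against 72.4% of the genes in that range. The steadiest were the chaperone Psmd9 (0.0469), Psmb4 (0.0600) and the nuclear activator Psme4 (0.0605). The most variable were Psmb11 (0.255), Psmd13 (0.232) and Psmb8 (0.220), which have mean levels of 18.5 CPM or less.

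Partners and regulators of the proteasome were looked at beside the subunits. Of 15 tested genes, 0 were higher and 2 lower in human against macaque, where 4.47% of all genes were higher and 3.54% lower: Zfand5, known as a proteasome-binding stimulator of degradation, and Akirin2, known for carrying proteasomes into the nucleus. Zfand5 was 139 to 185 CPM (median 157) in human, 147 to 191 CPM (median 183) in squirrel monkey and 167 to 224 CPM (median 198) in macaque mice, with a log2 fold change of -0.28 ± 0.06 (SE; edgeR, adjusted p = 0.000850). Akirin2 was 127 to 180 CPM (median 155) in human, 114 to 156 CPM (median 147) in squirrel monkey and 128 to 213 CPM (median 181) in macaque mice. It was lower than with macaque microbiota in both groups, by -0.25 ± 0.07 in human (adjusted p = 0.0144) and -0.35 ± 0.08 in squirrel monkey mice (adjusted p = 0.0207). The human against macaque call of Akirin2 was lost without batch A, E or F, and the squirrel monkey call without batch C, D, E or F. Both were lost with thinned counts and with oligodendrocyte markers as a covariate. Pomp, the maturation factor of the core (0.02 ± 0.06, adjusted p = 0.910), and Nfe2l1, the factor known to induce proteasome genes (0.18 ± 0.07, adjusted p = 0.0985), did not pass. In human against squirrel monkey 0 of 15 passed by edgeR, DESeq2 and limma voom, with 2 at unadjusted p under 0.05.

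Among genes of ubiquitin, its shuttles and the segregase Vcp, Rps27a was higher and Ubqln2 lower in human against macaque. Rps27a encodes ubiquitin fused to a ribosomal protein. It was 68.5 to 155 CPM (median 117) in human, 56.6 to 129 CPM (median 78.8) in squirrel monkey and 38.0 to 66.2 CPM (median 48.1) in macaque mice. All human mice lay above every macaque mouse. Its log2 fold change was 1.21 ± 0.13 for human (SE; edgeR, adjusted p = 4.91e-08) and 0.82 ± 0.15 for squirrel monkey mice against macaque (adjusted p = 0.00315). Between the squirrel monkey batches, C against D, the log2 fold change of Rps27a was 0.74 ± 0.19 (SE), with edgeR unadjusted p = 0.000376 and adjusted p = 0.401. Ribosomal protein genes have many processed pseudogenes, so the level of Rps27a is uncertain. The shuttle Ubqln2 was lower in human against macaque (-0.26 ± 0.04, adjusted p = 0.000117).

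Of 19 antigen processing and interferon genes 9 were tested, and 0 passed in any donor comparison by edgeR. Unadjusted p was under 0.05 in 2, 0 and 0 of them for human and squirrel monkey against macaque and for human against squirrel monkey. DESeq2 called 1 in human against macaque, H2-K1, a class I antigen-presenting molecule (log2 fold change 0.56, adjusted p = 0.0414), and 0 in the others; limma voom called 0. T cells, which are known for high immunoproteasome levels, left few tags: their 3 markers summed to 0.846 to 10.2 CPM per mouse. Of 7 microglia markers 0 passed by edgeR in human against macaque (2 with unadjusted p under 0.05; 0 by limma voom), with summed levels of 332 to 476 CPM in human, 330 to 446 CPM in squirrel monkey and 351 to 466.2 CPM in macaque mice.

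Markers of some cell types moved with the donor groups. Of 7 oligodendrocyte markers, 3 were higher in human against macaque by edgeR and 0 by limma voom, where 4.47% of all genes were higher by edgeR. All 7 had positive log2 fold changes there (median 1.28). Unadjusted p by edgeR was under 0.05 in all 7, and in 23.1% of all genes. In squirrel monkey against macaque 0 passed by edgeR, but all 7 were positive (median 1.05). Unadjusted p was under 0.05 in 5 of them, and in 13.2% of all genes. Their summed level was 691 to 9477 CPM (median 1216) in human, 791 to 4970 CPM (median 1821) in squirrel monkey and 576 to 3377 CPM (median 916) in macaque mice, and none of the 7 was at 0 in a group. With the log2 summed level of these markers as a covariate, Psmd13 had a log2 fold change of 1.29 for human against macaque (edgeR adjusted p = 5.24e-06) and Psmb7 of -0.43 (adjusted p = 0.0129). In human against macaque, edgeR also called the excitatory neuron markers Slc17a7 (0.25, adjusted p = 0.0163) and Neurod6 (-0.41, adjusted p = 0.0322), 1 of 3 inhibitory neuron markers, Slc32a1 (0.45, adjusted p = 0.0277), and 1 of 3 tested striatal markers, Penk (1.03, adjusted p = 0.0247). DESeq2 and limma voom called these neuronal markers too, but not Penk. The 3 inhibitory markers summed to 319 to 811 CPM (median 351) in human and 297 to 440 CPM (median 360) in macaque mice. The 4 listed striatal markers summed to 90.5 to 457 CPM (median 120) in human and 65.4 to 188 CPM (median 90.9) in macaque mice. Both human maxima were in batch B. Neurod6 was also lower in squirrel monkey against macaque (-0.64, edgeR adjusted p = 0.0217). Of the 5 astrocyte, 3 endothelial and 4 blood markers 0 passed by edgeR or limma voom in human against macaque, with 0, 1 and 1 at unadjusted p under 0.05 by edgeR. In squirrel monkey against macaque 0 passed by edgeR or limma voom, with 0, 1 and 4 at unadjusted p under 0.05 by edgeR. All 4 blood markers were positive there (median log2 fold change 0.76), and DESeq2 called 1 of them, Hba-a2 (1.12, adjusted p = 0.0428). The part of neuronal, striatal and blood markers in the proteasome results was not tested.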

How the data were processed

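The authors deposited 1 table of raw read counts per gene for 32 mice; its build is GRCm39, per the submitters' processing notes. No source used here names the aligner, the counter, the strand setting or any removal of duplicates. The table has 3 further columns that match no sample and were not used. Genes were filtered with edgeR's filterByExpr (minimum count 10, minimum total 15), which left 12651, and tested with edgeR 4.0.16 (TMM scaling, quasi-likelihood, 3 donor groups; batches compared in a fit of 6 batch levels) in R 4.3.3, with Benjamini-Hochberg adjustment over all genes. DESeq2 1.42.0 and limma 3.58.1 (voom) were alternatives, beside other scalings, filters, covariates, left-out batches and left-out mice. Leaving out the 5 deepest human mice, thinning and the oligodendrocyte covariate were chosen after seeing the data. The scripts were tested on simulated data. The members and lists were chosen with earlier results of these data known.

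Genes named with values in mice were those called, the 3 of smallest p in each donor comparison, the 6 catalytic subunits and the highest of each role class. Psmd14, Psmd1, Psmd4, Psme1, Psme2, Psmb11, Pomp, Nfe2l1 and H2-K1 were named after their values were seen. Levels are CPM from TMM-scaled totals over the genes tested, and 5 CPM are about 7.67 counts at the median library total. Overlaps and matches of 3′ ends come from GENCODE and promoters from RefSeq, both on GRCm38. A match was at least 100 aligned bases at 95% identity or more between the last 300 bases of the longest coding transcript and a transcript of another gene. Genes overlapping the member were left out, and the genome outside annotated transcripts was not searched. The labels do not say whether mice shared a donor or cage, and p-values measure only the spread between these samples. No 2 libraries of a donor group held identical values. The result of 1 gene of the ubiquitin list is not reported here.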

Additional observations from a re-analysis of the deposited data

Results flagged for a closer look

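Of 147 groups of 4 to 10 mice checked over 21 items, 6 held a mouse set apart from the others of its group. Chance flags about 1 in 20 groups. In batch A, with human microbiota, Psmb6 was 167.7 CPM in human replicate 1, against 131.9 to 136.5 CPM in the other mice. In the same batch Psmc2 was 183.9 CPM in human replicate 2, against 149.4 to 154.0 CPM. Among squirrel monkey mice, Psmc5 was 239.5 CPM in replicate 4, against 264.4 to 278.8 CPM, and Psmf1 was 59.09 CPM in replicate 3, against 36.90 to 45.65 CPM. Psmg4 was 37.50 CPM in squirrel monkey replicate 1, against 18.91 to 27.07 CPM. In batch B, Psmg4 was 30.05 CPM in human replicate 8, against 13.69 to 21.36 CPM.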

How the results depend on the processing

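Psmd13 was called in all 48 alternatives run for human against macaque and in all 50 run for any donor group; Psmb7 was called in 37 of 48. Among the alternatives, the number of members called between human and macaque mice, 2, became 5 with library totals as the only scaling and without batch B, 4 with 6 batches as fixed levels, and 1 with library total as a covariate, without batch A, without batch E, without batch F and without the 5 deepest human mice. It was 3 with DESeq2, with DESeq2's size factors and with thinned counts. Over all 12651 genes, 1013 passed in the main fit. This became 994 with library totals only, 1200 with 6 batches and 574 with library total as a covariate. Without batch B it was 1078 of 12973, without A 472 of 12471, without E 390 of 12672, without F 337 of 12880. The deepest human mice left out gave 559 of 12534, thinned counts 680 of 11405, DESeq2 1020 and its size factors 1017. Leaving out 1 mouse gave 1 to 4: 1 without human replicate 2 or macaque replicate 7 or 11, 4 without human replicate 3, and 3 without human replicate 12, squirrel monkey replicate 4, 6 or 8 or macaque replicate 4, 6 or 8. For any donor group the count of 1 became 2 with library totals only, with 6 batches, with counts summed per batch and with the oligodendrocyte covariate, 3 without batch B, and 1 to 3 without 1 mouse, with changes without human replicates 8, 11 and 12 and macaque replicate 9. Over all genes, leaving out 1 mouse gave 770 to 1146 calls for human against macaque and 560 to 877 for any donor group. For any donor group it was 778 of 12651 in the main fit, 746 with library totals only and 868 with 6 batches. The oligodendrocyte covariate gave 558, leaving out batch B 798 of 12973 and summing counts per batch 465 of 15701. The other 5 comparisons gave 0 to 0 members without 1 mouse. The members' median log2 fold change for human against macaque was -0.0934 without batch B. Without 1 mouse the medians ran from -0.01 to 0.03 (human against macaque), 0.003 to 0.04 (squirrel monkey against macaque), -0.04 to -0.01 (human against squirrel monkey), -0.17 to -0.09 (A against B), 0.01 to 0.09 (C against D) and -0.06 to 0.02 (E against F). Signs for human against macaque were followed for part of the members only. These were the called genes, the 3 of smallest p, the catalytic subunits and the highest of each role class. Among them the sign turned for Psmb6 without batch A (0.00204) and without the deepest human mice (0.0345). It also turned for Psme3 without batch A (0.0250), Psmg2 without batch B (-0.0387), Psmb1 without batch B (-0.0404) and Psmb8 without batch E (-0.0164). Signs of the other members were not looked at. The cause was not tested. No paired analysis was possible because the replicate numbers were given in accession order and pair no mice. Genes of few counts, such as Psmb9, are limited by depth.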
